A study of Mus musculus with 62 samples.

Results

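Genes commonly used to mark macrophages were followed in mouse muscle: Csf1r, Adgre1, Cd68, Lyz2, Cd163, Mrc1, Lyve1, Mertk, Fcgr3 and Cd14. They were taken by symbol from the expression table, and all 10 of 10 were found among its 47643 symbols. The muscle was the tibialis anterior of female mice aged 2 months, which had received melanoma cells that cause cachexia (CAC), melanoma cells that do not (NCAC) or a mock injection (Con). Muscle was taken at 2, 4, 6 or 8 weeks, giving 12 groups of 5 libraries each, except 7 for CAC at 8 weeks. The sample labels give the strain as C57BL6/J, whereas the series' design text gives NCI Ath/nude mice, and the 2 statements were not reconciled. Nude mice lack a thymus and therefore most T cells, so that statement would describe a host in which macrophages and other innate cells remain. The melanoma lines are not named in the labels, and each treatment is given only as a kind of cell. The protocol text also mentions a time of 3 weeks after injection of another cancer cell, LLC, which matches none of the groups.

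Macrophages are phagocytes that clear dead cells, debris and haemoglobin and that sense microbial products. Skeletal muscle holds resident macrophages in the connective tissue between fibres and around vessels, and blood monocytes add to them after injury. Csf1r is the receptor for the growth factors CSF1 and IL-34, on which most macrophages depend. Adgre1 encodes F4/80, Cd68 a glycoprotein of late endosomes and lysosomes, and Lyz2 the lysozyme of myeloid cells. Cd163 takes up haemoglobin bound to haptoglobin, Mrc1 is the mannose receptor CD206, and Lyve1 binds hyaluronan on perivascular macrophages and on lymphatic vessels. Mertk recognises dying cells through the bridging proteins Gas6 and protein S. Fcgr3 binds antibody-coated particles, and Cd14 hands lipopolysaccharide to Toll-like receptor 4.

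In GENCODE M21 (GRCm38, the assembly also called mm10), Cd163 spans chr6:124304656-124330527 on the plus strand and Mrc1 spans chr2:14229392-14332057 on the plus strand. Cd68 is a short gene at chr11:69664213-69666153 on the minus strand, and Lyve1 lies at chr7:110850607-110863239 on the minus strand. All 10 are annotated as protein-coding. RefSeq promoter windows (GRCm38.p6, 250 bases before to 50 after the transcript start) were at hand for 6 of the 10, namely Cd163, Mrc1, Cd68, Lyz2, Fcgr3 and Mertk. The windows of Cd163 and Cd68 are printed because Cd163 had the largest change of the tested markers in CAC and Cd68 the one that most often lost its call. Capitals mark matches to the motifs searched, on either strand.
Cd163, chr6:124304401-124304700, plus strand: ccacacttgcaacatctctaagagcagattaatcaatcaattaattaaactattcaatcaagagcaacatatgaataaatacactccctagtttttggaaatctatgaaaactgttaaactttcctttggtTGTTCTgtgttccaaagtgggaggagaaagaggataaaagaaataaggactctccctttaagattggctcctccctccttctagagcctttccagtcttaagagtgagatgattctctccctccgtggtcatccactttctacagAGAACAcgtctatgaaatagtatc
Cd68, chr11:69666121-69666420, minus strand: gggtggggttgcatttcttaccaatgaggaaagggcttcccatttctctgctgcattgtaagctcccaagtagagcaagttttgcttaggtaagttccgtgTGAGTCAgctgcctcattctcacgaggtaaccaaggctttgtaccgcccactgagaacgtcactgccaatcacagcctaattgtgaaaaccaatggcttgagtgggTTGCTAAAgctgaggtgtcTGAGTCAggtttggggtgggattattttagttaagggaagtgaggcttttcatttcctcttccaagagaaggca
In the Cd163 window both stretches of capitals are short recognition elements of the glucocorticoid receptor (TGTTCT or its complement), at -119 and 27 from the start, and no other of the 6 marker genes with a window held one, against 18.9% of 32544 windows. In the Cd68 window the capitals are 2 AP-1 motifs (TGANTCA) at -149 and -24 and 1 C/EBP motif (TTGCNNAA) at -43. The AP-1 motif was in none of the other 5 genes and in 7.79% of windows, and the C/EBP motif was also in the Fcgr3 window and in 10.8% of windows. A motif of PU.1 (GAGGAAGT), a factor of myeloid cells, was in none of the 6 and in 3.11% of windows, the Stat3 motif (TTCCNGGAA) in none and in 1.16%, and the CLEAR motif of lysosomal genes (TCACGTGA) in none and in 0.983%. These are matches of letters and not measured binding sites.

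All 10 markers had a value above 0 in all 62 libraries, at low levels. TPM gives each gene's share of a library's RNA per gene length, on a fixed total, so levels can be set side by side. Lyz2 stood highest, with a median of 29.2 TPM over the 62 libraries, followed by Csf1r at 2.44 TPM, and the other 8 had medians between 0.534 TPM for Adgre1 and 1.92 TPM for Mrc1. The estimated number of reads behind the median value ran from 41 for Adgre1 to 876 for Lyz2, where counting error alone is 15.6% and 3.38%. Both estimates are rough, since they came within 0.05 of a whole read in only 7 and 8 libraries. For Cd68, Mertk, Cd163, Mrc1 and Fcgr3 the estimates did so in all 62. Adgre1 had a mean of 0.764 TPM, below the filter of 1 TPM, so 9 of the 10 markers were tested, and Adgre1 was tested only in fits with no filter. The check of the tissue label found muscle: the summed TPM of 10 muscle fibre genes ran from 78670 to 129300 in Con and from 80560 to 131900 in CAC at 8 weeks. In these bulk samples fewer cells of a type and less RNA per cell cannot be told apart.

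**Figure D1:**
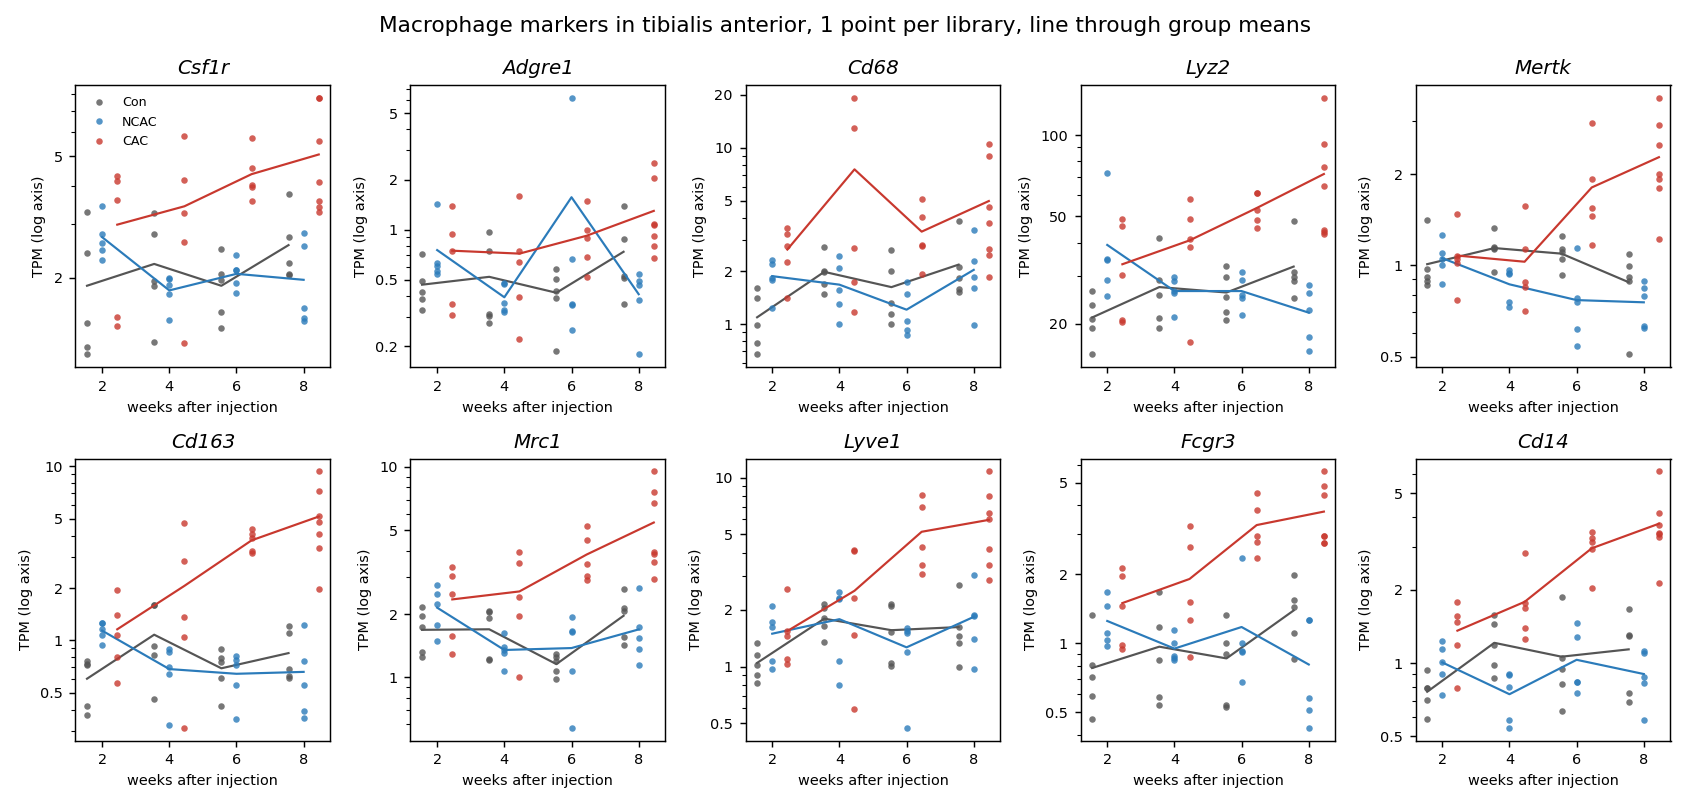
TPM of each marker (log axis) against weeks after injection, with 1 point per library and lines through group means for Con (grey), NCAC (blue) and CAC (red). CAC means stand above both other groups at 6 and 8 weeks for 9 markers, and for Adgre1 at 6 weeks the NCAC mean is lifted by 1 library at 6.21 TPM.

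Among the 62 libraries, 8 stood apart through markers of other cell types or activation states. Hepatocyte genes summed to 100.6 to 2251 TPM in CAC at 4 weeks replicate 5, Con at 2 weeks replicates 1, 2 and 4 and Con at 4 weeks replicate 3, against at most 63.7 TPM elsewhere. Keratinocyte genes reached 184.5 TPM in NCAC at 6 weeks replicate 5, erythrocyte genes 14740 TPM in CAC at 8 weeks replicate 3, and alternative activation genes 372 TPM in NCAC at 6 weeks replicate 4. Their part in the results was not tested beyond leaving all 8 out, and values without them stand beside the results below. The share of mitochondrially encoded RNA was 37.7% ± 2.43 (SD, n = 7) in CAC at 8 weeks and 48.8% ± 7.08 (SD, n = 5) in Con at 8 weeks. The median gene was 0.38 higher on the log2 scale in CAC than in Con at 6 weeks and 0.46 higher at 8 weeks. TPM values add to a fixed total, and the cause of these shifts was not tested. After rescaling by the median ratio of genes, these shifts were 0.00 and 0.01, so results on the markers against Con and against NCAC are given on both scales.

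Comparison of CAC with Con asked when muscle of mice with cachectic tumours departs from mock muscle. No marker was called at 2 weeks (0.054% of genes were called as deposited and 0.108% after rescaling) or at 4 weeks (0.936% and 1.55%). At 6 weeks 8 of the 9 tested markers were higher in CAC, and at 8 weeks all 9 were, led by Cd163 and Lyve1. After rescaling, 6 of 9 were called at each of these weeks, and Cd163, Mrc1, Lyve1, Fcgr3 and Cd14 were called at both. The background has to be read beside these counts, since 60.7% of 11107 genes were called higher at 6 weeks and 69.4% at 8 weeks as deposited, and 15.5% and 23.8% after rescaling. The median log2 change of the 9 markers was 1.02 at 6 weeks and 1.03 at 8 weeks, and after rescaling 0.66 and 0.60, against 0.00 and 0.01 for all genes. The fit gives all groups 1 common spread per gene, whereas CAC libraries at 8 weeks varied more than most (relative weight 0.498 when each group has its own), so standard errors there are understated.

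**Figure D2:**
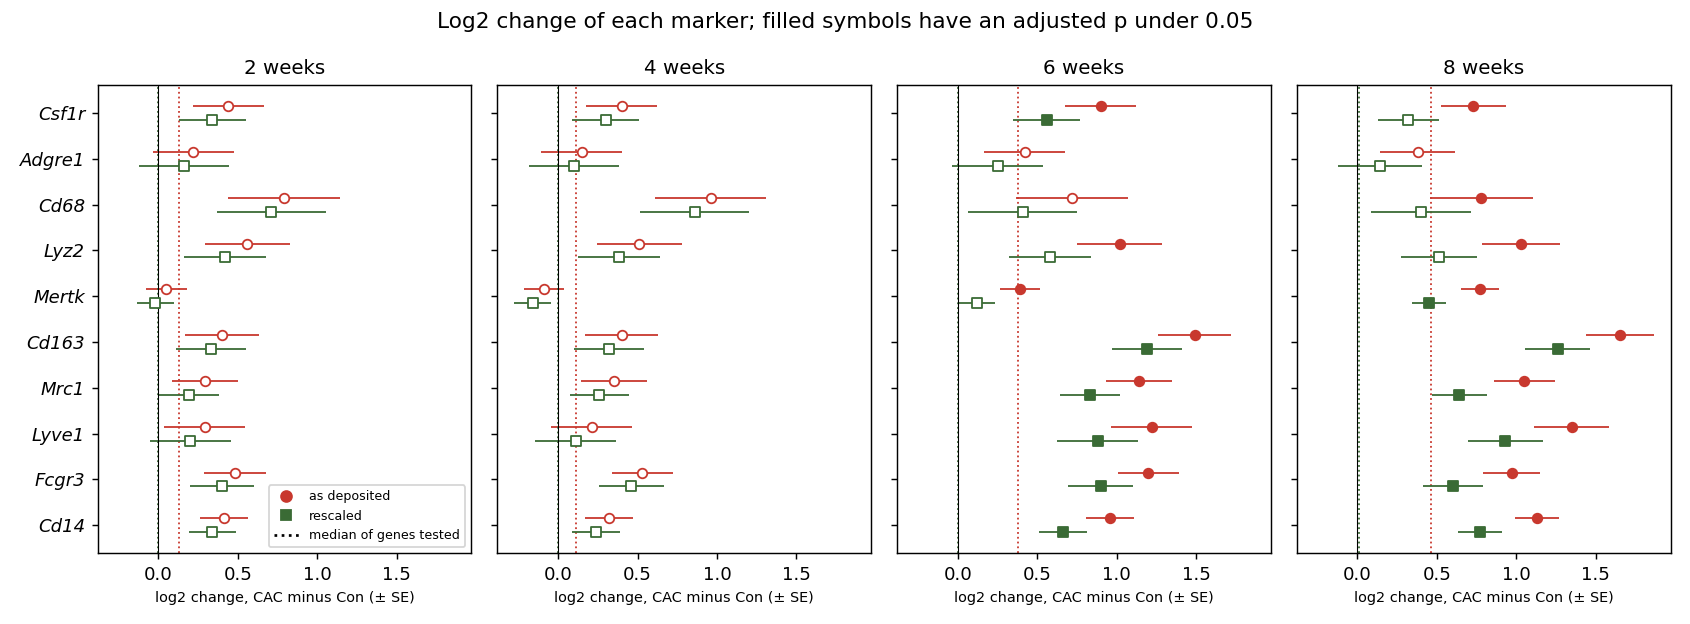
Log2 change of each marker, CAC minus Con, with its standard error, in 4 panels by week, as deposited (red circles) and rescaled (green squares); filled symbols are called and dotted lines are medians of all genes tested. No symbol is filled at 2 or 4 weeks, and Cd163 lies furthest right at 6 and 8 weeks, at 1.49 and 1.65 as deposited.

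Among the general markers, Csf1r in Con at 8 weeks was 2.71, 3.75, 2.04, 2.24 and 2.06 TPM, and in CAC at 8 weeks it ran from 3.27 TPM through a median of 4.11 TPM to 7.76 TPM. The ranges overlapped through 1 Con library, replicate 2, which lay above 3 of the CAC libraries. The mean was 1.98-fold higher in CAC (log2 change 0.73, SE 0.207, adjusted p = 0.00167). After rescaling the log2 change was 0.32 and was not called (adjusted p = 0.169), whereas at 6 weeks Csf1r was called on both scales (0.90 as deposited and 0.56 rescaled, adjusted p = 0.0337 for the latter). The rescaled call at 6 weeks was lost in the fit with no filter (0.56, adjusted p = 0.0612).

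Lyz2 followed Csf1r closely. In Con at 8 weeks it was 31.2, 48.2, 29.8, 25.03 and 28.8 TPM, and in CAC it ran from 43.2 TPM through 64.8 TPM to 138 TPM. The 2 highest CAC libraries, replicates 1 and 7, were also the 2 highest for Csf1r and Mrc1. The mean was 2.20-fold higher (log2 change 1.03, adjusted p = 0.000268), and rescaling took it to 0.51 and below the threshold (adjusted p = 0.0725). Lyz1, a neighbouring copy with which reads may be shared, changed by 0.10 and was not called (adjusted p = 0.797).

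Cd68, the lysosomal marker, was the only tested marker whose call against Con at 8 weeks was lost on leaving out single libraries. Its values in Con at 8 weeks were 1.83, 3.86, 2.10, 1.57 and 1.51 TPM, and in CAC they ran from 1.84 TPM through 3.74 TPM to 10.6 TPM. The mean was 2.30-fold higher, and the call (log2 change 0.78, SE 0.325, adjusted p = 0.0288) was lost in 5 of the 12 fits that left out 1 library of these groups, namely CAC replicates 3 and 7 and Con replicates 1, 4 and 5, with adjusted p from 0.0527 to 0.0959. It was also lost after rescaling (adjusted p = 0.302), with no filter (adjusted p = 0.0516), with 1 variance per group (adjusted p = 0.0588) and without the libraries that stood apart (0.62, adjusted p = 0.0853). At 4 weeks Cd68 in CAC was 1.17, 19.3, 2.70, 12.9 and 1.73 TPM, so that 2 libraries held the highest Cd68 values of the study while the other 3 lay within or near the Con range of 1.49 to 2.74 TPM.

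Adgre1 was the lowest of the markers, and only 3 libraries held over 1.59 TPM, with 2.04, 2.51 and 6.21 TPM. In Con at 8 weeks it was 0.883, 1.40, 0.530, 0.360 and 0.516 TPM, and in CAC it ran from 0.674 TPM through 1.06 TPM to 2.51 TPM. In the fit with no filter its log2 change was 0.38 (SE 0.236) and was not called (adjusted p = 0.198, where 41.1% of 23019 genes were called higher), so this marker did not pass the test against mock muscle at any week. Against NCAC at 8 weeks all 7 CAC libraries lay above all 5 NCAC libraries, whose values were 0.377, 0.538, 0.179, 0.465 and 0.490 TPM, and Adgre1 was called with no filter (0.66, adjusted p = 0.0191, where 40.8% of genes were called higher) but not with rescaling added (0.43, adjusted p = 0.257; 14.0% of genes).

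Cd163 had the largest log2 change of the tested markers against Con at 6 and 8 weeks. Cd163 in Con at 8 weeks was 1.105, 0.607, 0.623, 0.683 and 1.21 TPM, and in CAC it ran from 1.97 TPM through 4.82 TPM to 9.34 TPM. Every CAC library exceeded every Con library, and the lowest, replicate 3, was the one with high erythrocyte RNA. The mean was 6.09-fold higher at 8 weeks (log2 change 1.65, SE 0.213, adjusted p = 6.37e-09) and 5.43-fold higher at 6 weeks (1.49, adjusted p = 1.03e-06), where CAC libraries were 3.88, 3.19, 4.39, 3.26 and 4.07 TPM against 0.419 to 0.889 TPM in Con. Both calls held after rescaling, at 1.26 and 1.19.

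Mrc1 in Con at 8 weeks was 2.13, 2.64, 1.42, 1.55 and 2.07 TPM, and in CAC it ran from 2.94 TPM through 3.94 TPM to 9.51 TPM, with no overlap. The mean was 2.77-fold higher (log2 change 1.05, adjusted p = 5.83e-06; rescaled 0.64, adjusted p = 0.00215). Lyve1 was 0.999, 1.45, 1.61, 1.33 and 2.70 TPM in Con and ran from 2.87 TPM through 6.00 TPM to 10.8 TPM in CAC, so that the highest Con library fell just short of the lowest CAC library. Its mean was 3.69-fold higher (1.35, adjusted p = 2.66e-06; rescaled 0.93, adjusted p = 0.000996). Lyve1 is also a marker of lymphatic vessels, and the other 3 tested lymphatic genes were higher in CAC as well: the chemokine Ccl21a (log2 change 1.32), Pdpn (0.86) and the receptor Flt4 (0.48). Ccl21a and Pdpn were called after rescaling. Of all genes, 69.4% were called higher as deposited and 23.8% after rescaling, and the median gene changed by 0.46 as deposited, close to Flt4. As deposited, the summed lymphatic markers ran from 32.0 to 75.1 TPM in CAC and from 11.8 to 27.8 TPM in Con at 8 weeks. This sum includes Lyve1 itself, so it is not separate from the Lyve1 result. The lymphatic genes Prox1, Reln and Mmrn1 are in the sum but were below the filter and not tested. The part of lymphatic vessels in the Lyve1 result was not tested.

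Mertk in Con at 8 weeks was 0.511, 0.915, 0.997, 0.891 and 1.09 TPM, and in CAC it ran from 1.22 TPM through 2.00 TPM to 3.57 TPM, again with no overlap. The mean was 2.58-fold higher (log2 change 0.77, SE 0.118, adjusted p = 1.94e-07; rescaled 0.45, adjusted p = 0.00064). Its log2 changes were 0.05 at 2 weeks, -0.09 at 4 weeks and 0.39 at 6 weeks, and the last of these was no longer called without CAC at 6 weeks replicate 1 (adjusted p = 0.0706) or after rescaling (0.12, adjusted p = 0.417).

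Both sensing receptors were called higher against Con at 6 and 8 weeks on both scales, and Cd14 was called against NCAC at 4 weeks already. Fcgr3 in Con at 8 weeks was 1.55, 1.99, 1.11, 0.854 and 1.45 TPM, and in CAC it ran from 2.73 TPM through 2.95 TPM to 5.61 TPM. The mean was 2.70-fold higher (log2 change 0.97, adjusted p = 6.09e-06; rescaled 0.60, adjusted p = 0.0076). Its close relatives Fcgr2b and Fcgr4, with which reads may be shared, had means of 0.709 and 0.0781 TPM over the 62 libraries and were below the filter. Cd14 in Con at 8 weeks was 1.30, 1.66, 0.694, 1.29 and 0.751 TPM, and in CAC it ran from 2.13 TPM through 3.41 TPM to 6.13 TPM. It was 3.29-fold higher (1.13, SE 0.140, adjusted p = 2.03e-09; rescaled 0.77, adjusted p = 1.17e-05). Every CAC library exceeded every Con library for 7 of the 10 markers at 6 weeks, where 44.3% of genes did so, and for 6 of 10 at 8 weeks, against 38.0% of genes. On the rescaled values this held for 4 markers at 6 weeks (Cd163, Mrc1, Lyve1 and Fcgr3; 9.31% of genes) and for Cd14 alone at 8 weeks (6.29% of genes).

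CAC libraries were uneven at 4 weeks. Cd163 was 0.315, 2.86, 1.36, 4.71 and 1.05 TPM, so that replicate 1 held the lowest Cd163 value of all 62 libraries and replicate 4 a value within the 8-week range. The same 2 libraries, replicates 2 and 4, were the highest of the group for Csf1r, Cd68, Lyz2, Cd163, Mrc1, Lyve1, Adgre1 and Fcgr3. Replicate 1 was the lowest of the group for the same 8 markers. Although no marker was called against Con at 2 or 4 weeks, 4 and 3 of the 9 had an unadjusted p under 0.05. So did 954 and 1575 of the 11107 genes. After rescaling the counts were 2 and 2 markers, and 519 and 1660 genes. Without CAC replicate 1 at 4 weeks, 1 marker, Cd68, was called (adjusted p = 0.0289), in a fit for which the share of all genes called was not counted.

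The order of the 12 groups was led by CAC at 8 weeks and then CAC at 6 weeks for Csf1r, Lyz2, Mertk, Cd163, Mrc1, Lyve1, Fcgr3 and Cd14. Between those 2 groups no marker's means differed by more than the larger of their SDs. As deposited, the step from CAC at 6 weeks down to the next group exceeded the larger SD for Mrc1, Lyve1, Fcgr3 and Cd14. After rescaling, only Cd14 of these kept it (2.364 TPM, against 1.717 TPM in CAC at 4 weeks, larger SD 0.4963). The rescaled means at 6 and 4 weeks were 3.101 and 2.435 TPM for Mrc1 (larger SD 1.015). They were 4.155 and 2.37 TPM for Lyve1 (1.888), and 2.638 and 1.815 TPM for Fcgr3 (0.8634). Cd68 was led by CAC at 4 weeks and Adgre1 by NCAC at 6 weeks. The highest libraries of those groups, 19.3 and 12.9 TPM of Cd68 and 6.21 TPM of Adgre1, were also the highest of all 62.

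Whether the cachectic tumour differed from a tumour without cachexia was asked by comparing CAC with NCAC. These contrasts share the CAC libraries with those against Con. At 8 weeks all 9 tested markers were higher in CAC (67.0% of genes were called higher), and 8 of 9 after rescaling, all but Cd68 (23.4% of genes). Cd163 was 7.80-fold higher (log2 change 1.81, adjusted p = 6.07e-10), Fcgr3 4.64-fold (1.39, adjusted p = 5.97e-09), Cd14 4.15-fold (1.29, adjusted p = 7.14e-11) and Lyz2 3.26-fold (1.57, adjusted p = 4.12e-07). After rescaling these 4 log2 changes were 1.46, 1.04, 0.94 and 1.07. All CAC libraries exceeded all NCAC libraries for 8 of 10 markers at 8 weeks (40.1% of genes; 4 of 10 and 6.46% after rescaling) and for 8 of 10 at 6 weeks (43.1%; 3 of 10 and 11.9% after rescaling). Csf1r, not called against Con on the rescaled values, was called against NCAC there (0.60, adjusted p = 0.00866). At 6 weeks all 9 were higher as deposited (64.2% of genes) and 6 after rescaling (19.4% of genes): Mertk, Cd163, Mrc1, Lyve1, Fcgr3 and Cd14. Cd68 lost its call at 6 weeks without the libraries that stood apart (adjusted p = 0.0784), and at 8 weeks likewise (adjusted p = 0.0565). Its 6-week call was also lost without CAC replicate 3 (adjusted p = 0.0514) or with 1 variance per group (adjusted p = 0.0539), and its 8-week call without CAC replicate 3 (adjusted p = 0.0543), CAC replicate 7 (adjusted p = 0.0631) or NCAC replicate 2 (adjusted p = 0.0656). Without the libraries that stood apart, Mrc1 lost its call at 6 weeks on the rescaled values (0.54, adjusted p = 0.0505).

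At 4 weeks 2 markers were called against NCAC, Cd14 (log2 change 0.66, adjusted p = 0.00601) and Cd68 (1.13, adjusted p = 0.0464), where 4.68% of genes were called higher. Cd14 was the only marker whose groups did not overlap, at 1.25, 2.82, 1.40, 1.69 and 1.76 TPM in CAC and 0.895, 0.905, 0.580, 0.541 and 0.799 TPM in NCAC, as for 8.92% of genes, and it remained so after rescaling (2.64%). This count of calls turned on single libraries: 7 markers were called without CAC replicate 1 and 0 without CAC replicate 2. The share of all genes called was not counted in fits that left a library out, so these counts have no background beside them. Without NCAC replicates 1, 2, 3, 4 or 5 or CAC replicate 4, only Cd14 was called, as it was alone after rescaling (0.56, adjusted p = 0.0154; 2.64% of genes). Without the libraries that stood apart, Cd163 was called at 4 weeks (0.78, adjusted p = 0.0326; rescaled 0.69, adjusted p = 0.0468). At 2 weeks 0 of 9 were called (0.063% of genes in either direction, and 0.054% after rescaling). On both scales 0 had an unadjusted p under 0.05, against 778 of 11107 genes as deposited and 591 after rescaling.

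Comparison of NCAC with Con asked what a tumour without cachexia does on its own. NCAC and Con did not differ by the test for any of 9 markers at 2, 4, 6 or 8 weeks or over all weeks, where 0.162%, 0.0%, 0.0%, 0.009% and 0.0% of genes were called in either direction. After rescaling again 0 markers were called, against 0.207%, 0.0%, 0.0%, 0.018% and 0.0% of genes. An unadjusted p under 0.05 was reached by 1, 1, 0, 2 and 0 markers as deposited and by 1, 1, 1, 2 and 1 after rescaling. Over all 11107 genes it was reached by 281, 143, 118, 166 and 232 as deposited and by 554, 185, 328, 291 and 475 after rescaling. At 2 weeks all 5 NCAC libraries, 0.941 to 1.26 TPM of Cd163, lay above all 5 Con libraries, 0.374 to 0.759 TPM, as 0.549% of genes did, and this separation was absent after rescaling. Over all weeks the log2 changes ran from -0.13 for Mertk to 0.07 for Lyz2, and after rescaling from -0.13 for Mertk to 0.08 for Lyz2. Within mock muscle, 0 of 9 markers were called between 8 and 2 weeks (0.27% of genes, and 0.261% after rescaling). On each scale 2 markers had an unadjusted p under 0.05, as did 347 of 11107 genes as deposited and 609 after rescaling. After rescaling, all 8-week Con libraries exceeded all 2-week ones for Cd68 and Lyz2, as 0.711% of genes did.

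A change of the CAC effect over time was tested as the difference between CAC minus Con at 8 weeks and the same difference at 2 weeks. Of 9 markers, 5 had a larger effect at 8 weeks (36.4% of genes were called higher): Cd163 (difference of log2 changes 1.25, SE 0.314, adjusted p = 0.0028), Lyve1 (1.06, adjusted p = 0.0159), Mrc1 (0.76, adjusted p = 0.0309), Mertk (0.73, adjusted p = 0.00177) and Cd14 (0.72, adjusted p = 0.0067). The Mrc1 call was lost on leaving out any of 8 libraries: CAC at 2 weeks replicates 2 and 3, CAC at 8 weeks replicates 1 and 2, Con at 2 weeks replicates 2 and 3, and Con at 8 weeks replicates 3 and 4 (adjusted p from 0.0504 to 0.0804). After rescaling Mertk (0.47, adjusted p = 0.0295) and Cd163 (0.93, adjusted p = 0.0236) were called (8.45% of genes). For Cd68 the difference was -0.01 (SE 0.478), and for Csf1r 0.29 (SE 0.305), neither called.

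To see which markers moved beyond the level of the growth factor receptor shared by macrophages, each gene was also expressed relative to Csf1r in the same library, on the log2(TPM + 0.1) scale. This comparison was added after seeing the data. The Cd163 to Csf1r ratio in Con at 8 weeks ran from 0.162 through 0.306 to 0.590, and in CAC from 0.478 through 0.992 to 1.36. At 6 weeks the groups did not overlap, with 0.306 to 0.433 in Con and 0.7103 to 1.09 in CAC. Relative to Csf1r, Cd163 was higher in CAC than in Con at 6 weeks (1.13, adjusted p = 0.00535; 0.864% of genes called higher) and 8 weeks (1.47, adjusted p = 0.000258; 1.88%), and higher than in NCAC at 6 weeks (1.38, adjusted p = 0.00206; 1.19%) and 8 weeks (1.47, adjusted p = 7.35e-05; 1.39%). Fcgr3 was called against Con at 6 weeks (0.67, adjusted p = 0.0325) and against NCAC at 8 weeks (0.86, adjusted p = 0.00287). Lyz2 stayed near its ratio to Csf1r, 12.8 ± 1.49 (SD, n = 5) in Con and 13.9 ± 2.07 (SD, n = 7) in CAC at 8 weeks, a difference of 0.14 (SE 0.204) that was not called. Lyve1 (0.85, adjusted p = 0.0592) and Cd14 (0.73, adjusted p = 0.0635) missed the threshold at 8 weeks against Con. Dividing by Csf1r removes the scaling of a library from the ratio itself. Without the 8 libraries that stood apart, Cd163 relative to Csf1r was 1.64 higher than in Con at 8 weeks (adjusted p = 2.2e-05), and Lyve1 (0.97, adjusted p = 0.0234) and Cd14 (0.82, adjusted p = 0.0334) were then called there too. Without them, calls against NCAC were also made for Fcgr3 at 6 weeks (0.78, adjusted p = 0.0312) and Cd14 at 8 weeks (0.71, adjusted p = 0.0305). Lyve1 was not called against NCAC at 8 weeks, either with these libraries (0.33, adjusted p = 0.366) or without them (0.44, adjusted p = 0.215). The share of all genes called without these libraries was not counted.

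**Figure D3:**
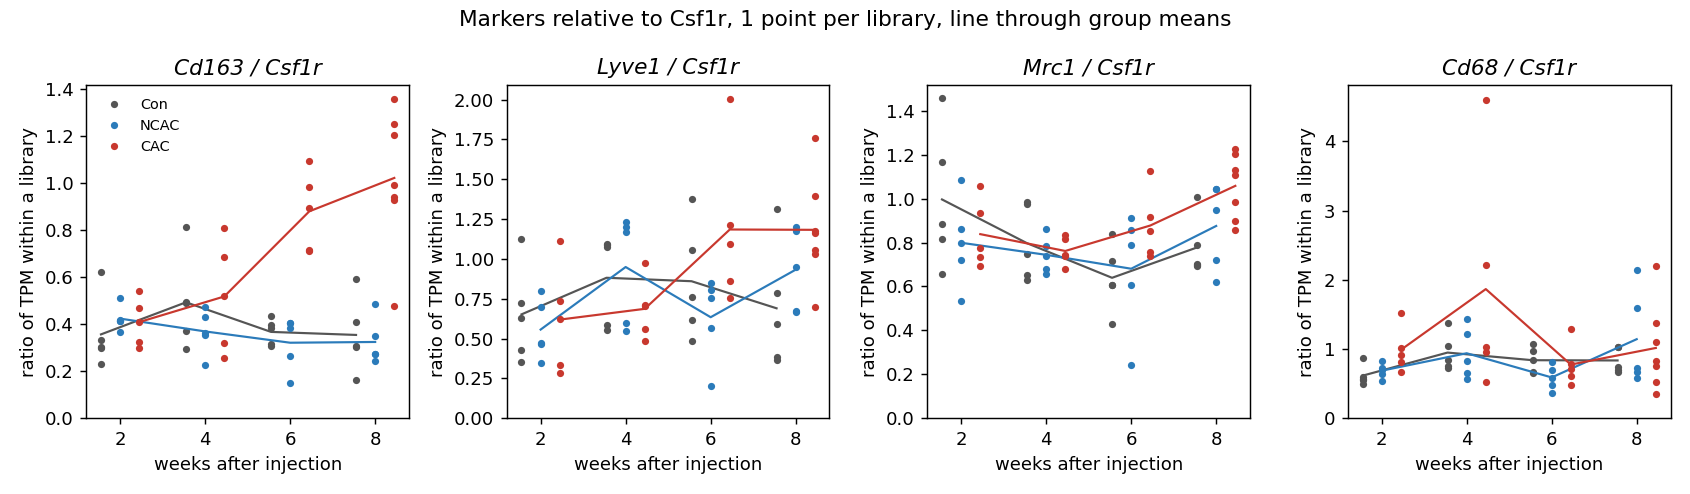
Ratio of TPM to Csf1r within each library for Cd163, Lyve1, Mrc1 and Cd68 against weeks after injection, 1 point per library and lines through group means. The mean Cd163 ratio is 0.879 at 6 weeks and 1.02 at 8 weeks in CAC, and 0.367 and 0.354 in Con, whereas 1 CAC library at 4 weeks carries the highest Cd68 ratio.

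The markers were then compared by how they varied between libraries of the same group, which the group differences do not enter. Over the 62 deviations from group means, Pearson's r between pairs of markers ran from -0.17 to 0.86 with a median of 0.49 over 45 pairs. These points share each library's composition and dissection, and r is a description. Csf1r, Lyz2 and Fcgr3 varied together (r = 0.86 for Csf1r with Lyz2, 0.83 for Csf1r with Fcgr3 and 0.80 for Lyz2 with Fcgr3), as did Mrc1, Cd163 and Lyve1 (r = 0.77 for Mrc1 with Cd163, 0.75 for Cd163 with Lyve1 and 0.70 for Mrc1 with Lyve1). Mertk varied with none of the general markers (r = 0.02 with Csf1r, -0.07 with Lyz2 and -0.02 with Cd68), and the marker closest to it ranked 3047 among 11107 genes by likeness. Its closest genes were Lrrc8c (r = 0.70), Malt1 (0.68) and Ncoa3 (0.68), which are not macrophage markers.

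**Figure D4:**
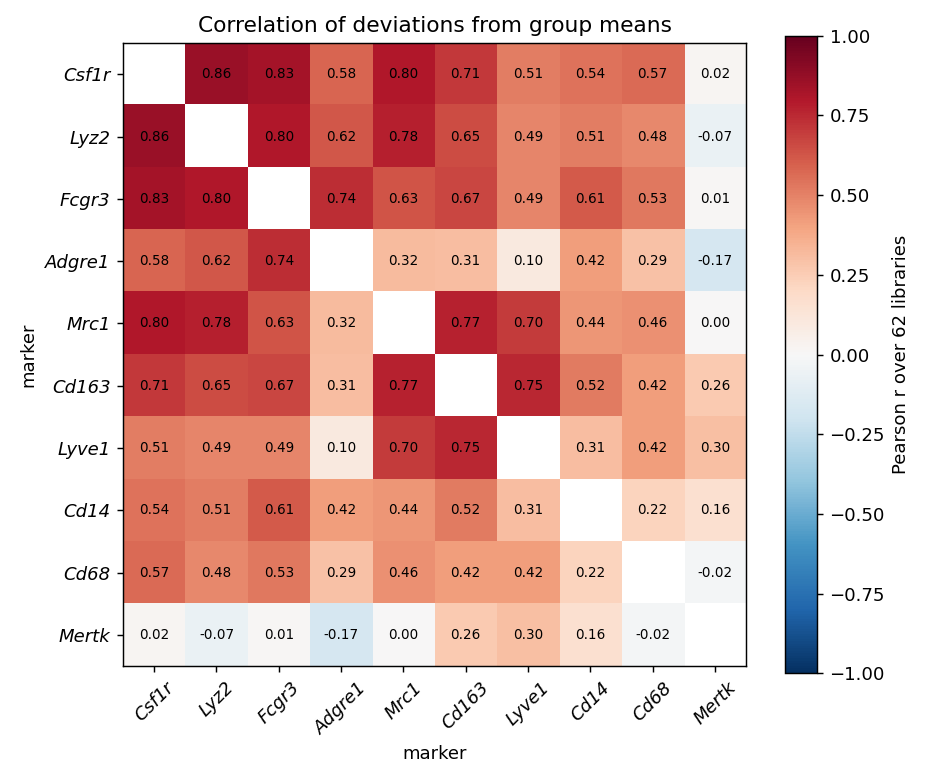
Pearson's r between markers over 62 libraries, after subtracting each group's mean of log2(TPM + 1), coloured from -1 (blue) to 1 (red). Csf1r, Lyz2, Fcgr3, Mrc1 and Cd163 form a block of high values, Lyve1 joins it through Mrc1 and Cd163, and the Mertk row lies between -0.17 and 0.30.

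The genes closest to Csf1r within groups were C1qa, a chain of complement C1q made by macrophages (r = 0.86), Lyz2 (0.86) and Pld4 (0.85). F13a1, the A chain of factor XIII, was the closest gene to Mrc1 (0.91), Cd163 (0.84) and Lyve1 (0.79), and Clec10a, a galactose-binding lectin, was among the 3 closest to Mrc1 (0.83) and Cd163 (0.80). Fcgr3 and Adgre1 were closest to Laptm5, a lysosomal protein of blood cells (0.85 and 0.83), and Cd14 was closest to Plac8 (0.66), Ccl6 (0.64) and Ccl9 (0.63). Cd68 was closest to Uck2 (0.74), Rras2 (0.74) and Mustn1 (0.71), of which Mustn1 is a gene of regenerating muscle, and its r with Csf1r was 0.57. Over the 12 group means the closest gene had an r of 0.95 to 0.99 for each of the 10 markers. It was C1qa for Fcgr3 and Lyz2 and Lsp1, a leukocyte protein, for Csf1r, but also genes of broad or muscle expression such as Eef1a1 for Cd163, Itgb1 for Mrc1 and Klhl41, a sarcomere protein, for Cd68.

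Other genes of resident and scavenging macrophages are given against the shares of all genes called higher in CAC than in Con at 8 weeks, 69.4% as deposited and 23.8% after rescaling. Of 15 tested genes on that list, which includes Cd163, Mrc1 and Lyve1, 13 were called higher in CAC than in Con at 8 weeks and none lower, and 11 after rescaling, with medians of 1.28 and 0.79. F13a1 rose from 2.24 ± 0.413 TPM (SD, n = 5) to 10.7 ± 5.91 TPM (SD, n = 7), a log2 change of 1.72 (rescaled 1.27), and Clec10a was 6.96-fold higher (1.71, rescaled 1.34). Fcna, a ficolin, was 6.53-fold higher (1.53, rescaled 1.19) and the lectin Cd209d 5.69-fold higher (1.43, rescaled 1.09). Exceptions were Mgl2, a close relative of Clec10a (log2 change -0.05, adjusted p = 0.838), and the transcription factor Maf (0.20, adjusted p = 0.567), neither of which was called.

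The list of genes that act on haemoglobin and haem includes Cd163. Haptoglobin, Hp, which carries haemoglobin to Cd163, rose from 1.099 ± 0.770 TPM (SD, n = 5) to 58.4 ± 31.3 TPM (SD, n = 7), a log2 change of 4.49 (rescaled 4.07). Hmox1, which breaks down haem, was 18.1-fold higher (2.32, rescaled 1.86), and the iron store subunit Ftl1 was 2.46-fold higher (1.30, rescaled 0.78). Of the 10 genes of this list 8 were called higher, where 69.4% of all genes were. After rescaling 6 were called higher, where 23.8% of all genes were, and 1, Blvra, lower (-0.44, adjusted p = 3.46e-05), where 2771 of 11107 genes were.

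All 6 tested genes of the lipopolysaccharide receptor list, Cd14 among them, were called higher at 8 weeks (69.4% of all genes), 5 of them after rescaling (23.8%). Lbp, which passes lipopolysaccharide to Cd14, was 9.04-fold higher (log2 change 2.61, rescaled 2.15), the adaptor Myd88 3.00-fold (1.29, rescaled 0.85) and the receptor Tlr4 2.78-fold (0.87, rescaled 0.52). Of the pro-inflammatory products of macrophages only 1 of 11 passed the filter, Nos2, which was 1.97-fold higher as deposited (0.73, adjusted p = 0.00104) and not called after rescaling (adjusted p = 0.125).

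For Mertk, 9 of 10 tested genes of dying-cell recognition, Mertk among them, were called higher at 8 weeks (69.4% of all genes). After rescaling 7 were called higher (23.8%) and 1 lower (2771 of 11107 genes). Gas6 rose from 67.0 ± 9.91 TPM (SD, n = 5) to 167 ± 41.9 TPM (SD, n = 7), a log2 change of 1.28 (rescaled 0.76), and Pros1, which encodes protein S, was 2.82-fold higher (1.31, rescaled 0.84). The sister receptor Axl was 1.48-fold higher as deposited (0.51, adjusted p = 0.0113) and changed by 0.04 after rescaling (adjusted p = 0.858). The signalling chain of Fcgr3, Fcer1g, was called as deposited (0.65, adjusted p = 0.00457) and not after rescaling (0.25, adjusted p = 0.33).

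Both ligands of Csf1r were higher as deposited, Csf1 2.28-fold (log2 change 0.97) and Il34 1.80-fold (0.65), and Csf1 also after rescaling (0.54, adjusted p = 0.00427). The chemokines Ccl8 (2.46, rescaled 2.04), Ccl6 (2.27, rescaled 1.80) and Ccl9 (1.57, rescaled 1.17) were called on both scales. Of 5 tested monocyte genes 4 were called higher, where 69.4% of all genes were, and 3 after rescaling, where 23.8% were. Plac8 was 21.0-fold higher (2.16, rescaled 1.83), Ly6c2 3.86-fold (1.68, rescaled 1.21) and Ly6c1, which endothelium also expresses, 3.55-fold (1.78, rescaled 1.26). The 3 chains of C1q were 2.97- to 3.18-fold higher, with rescaled log2 changes of 0.99 for C1qa, 1.04 for C1qb and 0.89 for C1qc.

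Genes of antigen presentation did not follow. Among 5 tested dendritic cell and MHC class II genes, H2-Ab1 was called lower in CAC than in Con at 8 weeks (log2 change -0.60, adjusted p = 0.0489) and Zbtb46 higher (0.36, adjusted p = 0.00253). After rescaling H2-Ab1, H2-Aa, H2-Eb1 and Cd74 were all called lower, by 1.06, 0.97, 1.14 and 1.02 on the log2 scale. Of all 11107 genes, 565 were called lower as deposited and 2771 after rescaling. The summed list in Con at 8 weeks ran from 48.4 through 57.9 to 199 TPM, so that 1 library lifted the mean, and in CAC from 27.7 through 66.5 to 96.4 TPM. Against NCAC at 8 weeks no gene of this list was called lower on either scale, where 560 of 11107 genes were as deposited and 2841 after rescaling.

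Markers of other cells and states at 8 weeks are set against the same shares of all genes called higher, 69.4% as deposited and 23.8% after rescaling. Called lower were 565 of 11107 genes as deposited and 2771 after rescaling. Of 8 blood endothelium genes 7 were called higher than in Con and 1 lower, with Pecam1 2.27-fold higher (log2 change 1.16, rescaled 0.64), and after rescaling 4 were called higher and 1 lower. Of 18 lysosome genes 16 were called higher, and 11 higher and 2 lower after rescaling. Of 10 genes of a glucocorticoid list 9 were called higher, and 7 after rescaling. The list held Fkbp5, Tsc22d3, Per1, Zbtb16, Dusp1, Klf9, Sgk1, the metallothioneins Mt1 and Mt2, and the receptor gene Nr3c1. Their summed level ran from 457 through 4823 to 10640 TPM in CAC and from 277 through 292 to 367 TPM in Con. The share of each gene in this sum was not tested. Of 9 fibroblast and progenitor genes 4 were called higher, a share below that of all genes, and 2 higher and 2 lower after rescaling. Summed neutrophil markers ran from 13.3 through 18.5 to 57.1 TPM in CAC and from 5.31 through 6.86 to 8.85 TPM in Con, and 2 of 12, S100a8 and S100a9, passed the filter. T, NK and B cell markers summed to at most 0.780 TPM in CAC and 3.47 TPM in Con. Melanocyte markers summed to at most 0.295 TPM in CAC at 8 weeks and 0.114 TPM in Con, and Kupffer cell markers to at most 2.44 TPM and 0.687 TPM. The part of these cells in the marker results was not tested.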

How the data were processed

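RNA of mouse tibialis anterior muscle was measured in 62 libraries. The authors deposited 1 table of TPM (each gene's length-scaled share of a library's RNA, on a fixed total), and each of its columns sums to 1000000. Libraries came from a stranded mRNA kit read on an Illumina instrument, per the labels' protocols, and the genome build was mm10, per the submitters' processing notes. Which aligner, counter, annotation and filters were used is not given in these sources. No batch is named in the labels, which call the libraries biological replicates.

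Values were analysed as log2(TPM + 1), and the 11107 of 47643 symbols with a mean of at least 1 TPM were tested. One linear model with 12 group means and 50 residual degrees of freedom used limma (version 3.58.1, under R 4.3.3) with its mean-variance trend. There were 15 contrasts, each with p-values adjusted by Benjamini-Hochberg over its genes; an adjusted p below 0.05 counts as a call, and tests are two-sided. Log2 changes on this scale understate the change of weakly expressed genes, and folds are ratios of mean TPM. Rescaling divided each library by its median ratio to the geometric mean over libraries of the 13867 genes above 0 in every library. The procedure was tested on simulated data in which all groups shared 1 spread per gene. That test therefore does not cover groups of unequal spread. Python 3.11.15 was used for descriptions.

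The 10 markers and all gene lists were chosen with earlier results of these data known. All 10 markers were described. Beside them were named the closest-varying genes of each marker, by Pearson's r, 3 per marker, and up to 4 called genes per list with the smallest adjusted p together with the known partners of the markers. Genes named outside this rule (Mgl2, Maf, Blvra, the MHC class II genes and those of the NCAC library with high Adgre1) were chosen after their values were seen. Alternatives were rescaling, a pseudocount of 0.1, no filter, only the weeks compared, a replicate block, 1 variance per group and leaving out each library. Those chosen after seeing the data were leaving out 8 libraries that stood apart, no filter together with rescaling, and values relative to Csf1r. TPM keeps no depth. From the steps between low values and GENCODE M21 exon lengths, depth was estimated as a guide only, and the read numbers given for markers rest on it.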

Additional observations from a re-analysis of the deposited data

Results flagged for a closer look

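Of 120 sets of values, 10 markers in 12 groups, 7 held a library far from the others, where chance gives about 1 in 20, or 6. In NCAC at 6 weeks, replicate 4 had 6.21 TPM of Adgre1 against 0.251 to 0.671 TPM in the other 4, and 2.37 TPM of Fcgr3 against 0.677 to 1.01 TPM. The same library had 238 TPM of Chil3, a secreted chitinase-like protein of activated macrophages, against at most 0.572 TPM in the other 61 libraries. It also had 356 TPM of Retnla against at most 39.1 TPM, 23.1 TPM of Alox15 against at most 3.13 TPM and 1.48 TPM of Foxj1, a gene of ciliated cells, against at most 0.156 TPM. Its Cd163 (0.353 TPM), Mrc1 (0.576 TPM) and Lyve1 (0.474 TPM) were the lowest of its group as deposited. In this group the ratios used for rescaling ran from 0.607 to 1.02, so levels between its libraries depend on the scale. The SD of Cd163 there was 0.1895 TPM as deposited and 0.1213 TPM after rescaling.

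In NCAC at 2 weeks, replicate 3 had 1.42 TPM of Adgre1 against 0.542 to 0.631 TPM in the others, and 72.6 TPM of Lyz2 against 25.3 to 34.7 TPM. In Con at 8 weeks, replicate 2 had 48.2 TPM of Lyz2 against 25.03 to 31.2 TPM, and 3.86 TPM of Cd68 against 1.51 to 2.10 TPM. In Con at 2 weeks, replicate 2, one of those with hepatocyte RNA, had 1.41 TPM of Mertk against 0.861 to 0.973 TPM.

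The CAC effect against Con differed between 8 and 2 weeks for 5 markers, by log2 differences of 1.25 for Cd163, 1.06 for Lyve1, 0.76 for Mrc1, 0.73 for Mertk and 0.72 for Cd14, by limma's test of the difference itself. In the same contrast 36.4% of genes were called higher. After rescaling only Mertk and Cd163 of these were called, where 8.45% of genes were called higher. The Mrc1 call was also lost on leaving out any of 8 single libraries.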

How the results depend on the processing

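The counts of markers called against Con at 6 and 8 weeks stayed within 1.5 times of 8 and 9 under all alternatives except rescaling with no filter at 6 weeks, which gave 5. That range is wide, since rescaling alone lowered the counts to 6 at both weeks. Leaving out single libraries gave 8 to 9 of 9 there, and 0 to 1 against Con at 4 weeks, where 0 were called. Against NCAC at 4 weeks the 2 calls became 1 with rescaling, a pseudocount of 0.1, no filter, no filter with rescaling or only the weeks compared, and 6 with 1 variance per group. Leaving out single libraries gave 0 to 7 there. The share of all genes called was not counted for these fits or for 1 variance per group. Against NCAC at 6 weeks the 9 calls became 5 without the libraries that stood apart, rescaled. For the difference between 8 and 2 weeks, the 5 calls became 2 with rescaling, also with no filter added or without the libraries that stood apart. The cause of these changes was not tested. Over all genes, rescaling moved the split of calls against Con at 8 weeks from 7707 higher and 565 lower to 2643 higher and 2771 lower. No marker changed direction where it was called under either setting. With the replicate number as a block, 8 and 9 markers were called against Con at 6 and 8 weeks, 9 and 9 against NCAC, and 4 instead of 5 for the difference. The numbers did not pair libraries: the mean correlation of deviations between libraries of the same number lay between -0.0239 and 0.0216. By the rough estimates of depth, Adgre1 had the fewest reads, with a median of 41, close to 45 for Cd14 and 46 for Fcgr3. TPM fixes each library's total, and the rescaled values assume that the median gene did not change. All p-values over groups with unequal spread are approximate.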
